A study of Micropterus salmoides with 45 samples.

Results

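miR-144 is a microRNA of red blood cells, and both of its arms were followed here in the liver of largemouth bass under low oxygen. The 2 members are msa-miR-144-3p and msa-miR-144-5p (here miR-144-3p and miR-144-5p), the strands cut from the 3′ and the 5′ side of 1 hairpin precursor, taken by name from the 266 miRNAs listed in every library. The 45 small RNA libraries come from livers of 6-month-old Micropterus salmoides held at 20 °C and fasted throughout. Control fish were kept at 7.0 mg/L dissolved oxygen, moderate hypoxia was 3.0 mg/L and severe hypoxia 1.2 mg/L, each within 0.2 mg/L. Livers were taken at 0, 4, 8, 12 and 24 h, which gives 15 groups of 3 libraries, and 0 h was counted from the moment the target oxygen was reached after up to 2 h of bubbling nitrogen. Each oxygen level had 3 tanks in all. The labels tie no library to a tank or a fish, so p-values measure the spread between libraries, which may be technical, and tank and oxygen level cannot be told apart.

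In vertebrates miR-144 is transcribed together with miR-451 under the control of GATA factors, and the pair is strongly expressed in maturing red cells. In zebrafish miR-144 restrains embryonic globin expression through a Krüppel-like factor and lowers Dicer, the enzyme that cuts most miRNA precursors. Fish red cells keep a nucleus and circulate through the liver, so liver RNA holds RNA of blood unless the organ is flushed free of it. In bulk tissue fewer red cells and less miR-144 per cell cannot be told apart.

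Both arms were well covered. Levels are in rpm, the reads of a miRNA scaled to a common library size. msa-miR-144-3p averaged 1272 rpm over the 45 libraries and ranged from 168 to 3752 rpm, and msa-miR-144-5p averaged 814 rpm and ranged from 195 to 2422 rpm. In rank by level the arms stood between 33rd and 99th of the 266 miRNAs of a library. In each of the 15 groups and for either arm, the middle of the 3 deposited values equalled the mean of the lowest and the highest. Such averaged values were left out of means and tests, so each group has n = 2 measured values per arm, and an SD covers only those. The library values listed below include them. An averaged value always lies between the other 2. Where the 3 libraries of a group are said not to overlap with others, this therefore rests on its 2 measured values. The spacing of measured values, first of low and then also of higher ones, implies 1.01 to 5.57 mega-reads per library (median 2.31). Multiplied by that depth, all 60 measured miR-144 values fell within 0.04 of a whole number of reads, whereas 27 of the 30 averaged values did not. The depth was chosen to make measured values whole, most of those of miR-144 among them, and averaged values had no part in it. This difference is therefore partly built in. At that depth the measured values correspond to 341 to 14221 reads of miR-144-3p and 245 to 6743 reads of miR-144-5p, so counting error is small beside the level. The narrowest SDs are no wider than counting error, such as 4.1 rpm for miR-144-5p in severe hypoxia at 8 h. With n = 2 they are not read as a small spread.

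The summed rpm of all listed miRNAs ran from 300084 to 961089 between libraries, and the library size used for scaling was not stated in the labels. Differences are therefore given as deposited and, where it matters, scaled to the listed total. Differences are on the log2(rpm + 1) scale from limma, fitted over 228 miRNAs, and a difference is called when its adjusted p (Benjamini-Hochberg over all miRNAs tested) is under 0.05.

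At normal oxygen both arms were highest at 8 h and, as deposited, lowest at 24 h. Control libraries 1, 2 and 3 held 1102, 1076 and 1127 rpm of miR-144-3p at 0 h. They held 1790.4, 2293 and 1288 rpm at 4 h, and 1769.6, 3399 and 2584 rpm at 8 h. The 8 h libraries were all above those of 0 h and were also the widest apart. At 12 h the values were 1119, 1398 and 840.1 rpm, and at 24 h they were 611, 389 and 834 rpm. The 24 h libraries lay below all other control libraries.

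miR-144-5p followed the same course in control liver. Its values were 766, 658 and 875 rpm at 0 h. The 4 h libraries held 1360.5, 2025 and 696 rpm, the 8 h libraries 1358, 2422 and 1890.1 rpm. At 12 h they were 1036, 1260.15 and 812 rpm, and at 24 h 460.5, 301 and 620.0 rpm. The 4 h libraries overlapped those of both 0 h and 8 h. The change over time was called for both arms (range of group means 2.10 log2 for miR-144-3p, adjusted p = 0.00191, and 2.07 log2 for miR-144-5p, adjusted p = 0.00415, limma F-tests), as it was for 78.4% of all miRNAs tested. The listed total was also lowest at 24 h in control. Scaled to it, the ranges were 1.21 and 0.95 log2 and neither arm was called (adjusted p = 0.131 and 0.241). The lowest hour then also changed, since miR-144-3p made up 0.181% of the listed total at 24 h against 0.143% at 12 h, and miR-144-5p 0.136% at 24 h against 0.123% at 0 h.

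Under severe hypoxia miR-144-3p went from the highest group mean of the series at 0 h to the lowest at 8 h. At 0 h the severe libraries held 3334, 3752 and 3543 rpm of miR-144-3p, and at 4 h 1224, 769 and 997 rpm. At 8 h they held 264, 168 and 216 rpm. The measured libraries 1 and 2 at 0 h were above every library of the other groups except control library 2 at 8 h. The measured libraries 1 and 2 at 8 h were below every library of the other 4 severe hours. Library 3 holds the average of these 2 at both hours. The level stood at 1380.2, 1386 and 1374 rpm at 12 h. The 24 h libraries held 532, 473 and 502 rpm, so the low level at 8 h lay between higher levels at 4 h and 12 h. The range of group means was 4.06 log2 (adjusted p = 1.72e-06), beside 63.3% of miRNAs called over time in severe hypoxia.

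miR-144-5p moved less but in the same order up to 8 h. The severe libraries held 2102, 1779 and 1940.3 rpm at 0 h. The 4 h libraries held 860.1, 716 and 1004 rpm, the 8 h libraries 280.3, 275 and 277 rpm. The 8 h libraries were apart from all libraries of 0, 4 and 12 h. Their 277 rpm is the average of the 2 measured values, whose closeness is not read as a small spread. At 12 h the values were 427, 609 and 518 rpm, and at 24 h 391, 293 and 195 rpm. The 24 h libraries reached as low as those of 8 h, which miR-144-3p did not. The range was 2.80 log2 (adjusted p = 9.73e-05). Both arms were also called after scaling to the listed total (ranges 4.03 and 2.76 log2, adjusted p = 3.85e-06 and 0.000171).

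In moderate hypoxia both arms stayed near their 0 h level at 4 h, and their courses differed at 8 h. The libraries held at 0 h 1627, 1566 and 1689 rpm of miR-144-3p, at 4 h 1429, 1512 and 1594 rpm, then 384, 539.5 and 228 rpm at 8 h. They were back at 1085, 1418 and 1750.5 rpm at 12 h, and the 24 h libraries held 301, 287 and 294 rpm. The 8 h and 24 h libraries lay below all others of this oxygen level. miR-144-5p held 519, 757 and 638 rpm at 0 h. At 4 h it held 613, 534 and 691 rpm, with 441, 489 and 393 rpm at 8 h. It stood at 761, 863 and 964 rpm at 12 h and at 277, 214 and 246 rpm at 24 h. The 8 h libraries of this arm were thus only a little below those of 0 and 4 h.

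The change over time in moderate hypoxia was called for miR-144-3p (range 2.46 log2, adjusted p = 1.41e-05) and for miR-144-5p (1.81 log2, adjusted p = 0.00902), where 85.0% of miRNAs were. After scaling to the listed total miR-144-3p was still called (1.92 log2, adjusted p = 0.00116) and miR-144-5p was not (0.94 log2, adjusted p = 0.334). Without moderate library 2 at 24 h the call of miR-144-5p also ended (adjusted p = 0.0789).

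**Figure D1:**
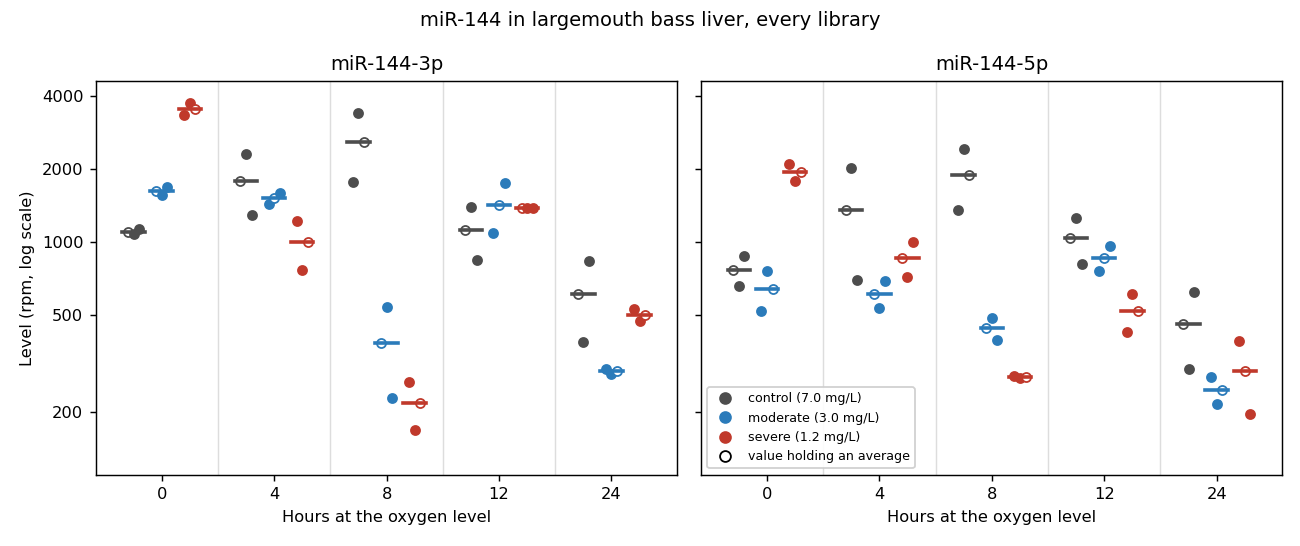
Level of miR-144-3p (left) and miR-144-5p (right) in rpm on a log axis, by hour and oxygen level, with 1 point per library, open points for values that are the average of the other 2 and a bar at the mean of the 2 measured values. The severe libraries go from 3334 rpm or more at 0 h to 264 rpm or less at 8 h for miR-144-3p, while the control libraries are at their highest at 8 h.

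In order of group means, severe hypoxia at 0 h was highest for both arms (3543 ± 295 rpm for miR-144-3p and 1940 ± 228 rpm for miR-144-5p, SD, n = 2). It was followed for both by control at 8 h (2584 ± 1152 and 1890 ± 752 rpm) and control at 4 h (1790 ± 711 and 1360 ± 940 rpm). At the other end stood severe hypoxia at 8 h for miR-144-3p (216 ± 67.7 rpm) and moderate hypoxia at 24 h for miR-144-5p (246 ± 44.4 rpm). Neighbours in this order overlapped in 13 of 14 pairs for each arm. The pairs that did not were moderate hypoxia at 24 h above severe at 8 h for miR-144-3p, and moderate at 8 h above severe at 24 h for miR-144-5p. From highest to lowest group, miR-144-3p spanned 4.06 log2 (16.7-fold), the 9th widest span of 152 miRNAs averaging 10 rpm or more and measured in all groups. miR-144-5p spanned 2.98 log2 (7.9-fold), the 33rd, and the median miRNA spanned 2.19 log2.

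Compared with control at the same hour, severe hypoxia started high in miR-144. At 0 h miR-144-3p was 3.21-fold higher (log2 1.68, SE 0.42, adjusted p = 0.0166), with 3543 ± 295 against 1102 ± 36.5 rpm (SD, n = 2 each). miR-144-5p differed in the same direction (1940 ± 228 against 766 ± 154 rpm, log2 1.35, SE 0.44) and was not called (adjusted p = 0.0688). The severe and control libraries did not overlap in either arm, as was the case for 54.1% of miRNAs, while 7.80% were called at this hour. Scaled to the listed total both arms were called (log2 1.78 and 1.44, adjusted p = 0.00923 and 0.0314), as were 23 of 218 miRNAs, 19 of them higher. The call of miR-144-3p ended without control library 2 or 3 or severe library 1 or 2 (adjusted p = 0.0728, 0.0763, 0.0933 and 0.0951), each of which leaves a single measured value in its group, and the difference stayed between 1.60 and 1.77 log2.

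At 4 h neither arm passed the test. miR-144-3p stood at 997 ± 321 rpm in severe hypoxia against 1790 ± 711 rpm in control (log2 -0.82, SE 0.42, adjusted p = 0.319), where 6.33% of miRNAs were called. Its libraries did not overlap between the groups, as for 58.8% of miRNAs. miR-144-5p stood at 860 ± 204 against 1360 ± 940 rpm and its libraries overlapped (log2 -0.48, SE 0.44, adjusted p = 0.595), and without control library 2 the difference was 0.29 log2.

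At 8 h both arms were far lower in severe hypoxia than in control. miR-144-3p was 11.6-fold lower at 216 ± 67.7 against 2584 ± 1152 rpm (SD, n = 2 each; log2 -3.53, SE 0.42, adjusted p = 2.75e-06). miR-144-5p was 6.52-fold lower at 277 ± 4.1 against 1890 ± 752 rpm (log2 -2.70, SE 0.44, adjusted p = 0.000124). Of all miRNAs tested 23.6% were called at this hour and 69.9% did not overlap between the groups. By size of difference miR-144-3p ranked 4th and miR-144-5p 9th of 216 miRNAs. The median miRNA differed by -0.28 log2 as deposited and by 0.12 after scaling to the listed total. The arms then differed by -3.10 and -2.27 (adjusted p = 1.94e-05 and 0.000605). With this scaling 34 of 216 miRNAs were called, 17 of them lower. Leaving out any 1 of the 6 libraries kept both calls, with differences of -4.00 to -3.06 for miR-144-3p and -3.12 to -2.29 for miR-144-5p.

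Later differences from control were smaller, and none was called. At 12 h miR-144-3p held 1380 ± 8.44 rpm in severe hypoxia and 1119 ± 394 rpm in control (log2 0.35, SE 0.42, adjusted p = 0.549) and its libraries overlapped, whereas miR-144-5p stood at 518 ± 129 against 1036 ± 317 rpm without overlap (log2 -0.99, SE 0.44, adjusted p = 0.0985). At this hour 32.4% of miRNAs were called and 71.4% did not overlap. At 24 h the arms differed by -0.18 and -0.64 log2 (adjusted p = 0.751 and 0.262) with overlapping libraries, where 33.8% of miRNAs were called. After scaling, the 24 h difference of miR-144-5p was -1.34 log2 and called (adjusted p = 0.0231), and the listed total of control was at its lowest at that hour. Of the 213 miRNAs tested 61 were called at 24 h after scaling, 47 of them lower.

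Moderate hypoxia shared the low level at 8 h. miR-144-3p was 6.98-fold lower than control at 384 ± 221 against 2584 ± 1152 rpm (SD, n = 2 each; log2 -2.80, SE 0.42, adjusted p = 0.000114). miR-144-5p was 4.13-fold lower at 441 ± 67.4 against 1890 ± 752 rpm (log2 -2.05, SE 0.44, adjusted p = 0.00176). The background at this hour was high, with 34.4% of miRNAs called, nearly all lower (73 of 74), and 82.3% not overlapping. The arms ranked 2nd and 5th by size of 215 miRNAs. The median miRNA differed by -0.56 log2, and by 0.18 after scaling to the listed total. Scaled so, miR-144-3p differed by -1.95 and was called (adjusted p = 0.00992), and miR-144-5p by -1.19 and was not (adjusted p = 0.129). Only 11 of 215 miRNAs were called with this scaling, 4 of them lower. Both comparisons at 8 h use the same control libraries, which held the highest miR-144 of any control hour.

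At the other hours moderate hypoxia gave no called difference from control in either arm. At 0 h miR-144-3p stood at 1627 ± 87 against 1102 ± 36.5 rpm without overlap (log2 0.56, SE 0.42, adjusted p = 0.342), and miR-144-5p at 638 ± 168 against 766 ± 154 rpm with overlap (log2 -0.28, adjusted p = 0.714). There 17.1% of miRNAs were called and 64.4% did not overlap. At 4 h miR-144-3p differed by -0.19 log2 (adjusted p = 0.765) and by 0.43 after scaling, so its direction depends on the scaling. miR-144-5p stood at 613 ± 111 against 1360 ± 940 rpm without overlap (log2 -0.96, SE 0.44, adjusted p = 0.0915), and without control library 3 it was called (log2 -1.74, adjusted p = 0.00825). At this hour 38.4% of miRNAs were called and 68.1% did not overlap.

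At 12 h of moderate hypoxia the arms differed from control by 0.35 and -0.24 log2 (adjusted p = 0.641 and 0.753), with overlap in both and 3.21% of miRNAs called. By 24 h both arms lay below control without overlap, where 64.9% of miRNAs did not overlap. miR-144-3p stood at 294 ± 9.66 against 611 ± 315 rpm (log2 -0.95, SE 0.42, adjusted p = 0.104) and miR-144-5p at 246 ± 44.4 against 460 ± 226 rpm (log2 -0.82, SE 0.44, adjusted p = 0.182), with 20.2% of miRNAs called. Without control library 2 at 24 h the difference of miR-144-3p was -1.50 log2 (adjusted p = 0.0359).

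**Figure D2:**
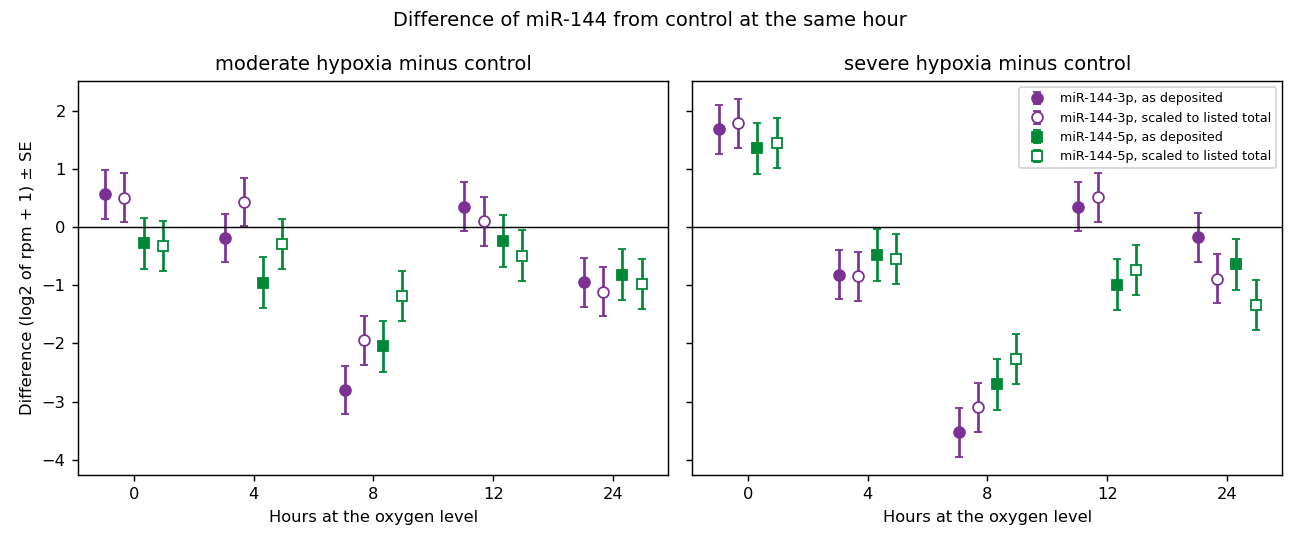
Difference of miR-144-3p (circles) and miR-144-5p (squares) from control at the same hour for moderate (left) and severe hypoxia (right), in log2 of rpm + 1 with standard errors, as deposited (filled) and scaled to the listed total (open). The 8 h differences are the lowest in both panels (-2.80 and -2.05 log2 in moderate, -3.53 and -2.70 in severe hypoxia as deposited), and the highest stand at 0 h of severe hypoxia (1.68 and 1.35).

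Averaged over the 5 hours, miR-144-5p was lower than control in severe hypoxia (log2 -0.69, SE 0.20, adjusted p = 0.0146), and miR-144-3p was not called (log2 -0.50, SE 0.19, adjusted p = 0.0512), where 26.4% of miRNAs were. In moderate hypoxia both were lower (log2 -0.61 and -0.87, SE 0.19 and 0.20, adjusted p = 0.0185 and 0.00264), where 38.1% of miRNAs were called. Scaled to the listed total, miR-144-3p was called in severe hypoxia (log2 -0.51, adjusted p = 0.0489, with 60 of 201 miRNAs called). It was not called in moderate hypoxia (log2 -0.40, adjusted p = 0.126, with 34 of 197 called). The calls of these averages ended without the 8 h groups. That of miR-144-5p in severe hypoxia also ended without 12 h (log2 -0.62, adjusted p = 0.0705), and that of miR-144-3p in moderate hypoxia without 24 h (log2 -0.52, adjusted p = 0.0762). Without 8 h the severe differences were 0.26 and -0.19 log2 (adjusted p = 0.413 and 0.576) and the moderate ones -0.06 and -0.58 (adjusted p = 0.862 and 0.0642). With the spread between hours as the error, none was called (adjusted p = 0.784 to 0.891 for the 3 that had been). Hardly any miRNA was called in that fit, 0 of 224 in severe and 1 of 224 in moderate hypoxia against control.

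The difference from control depended on the hour for both arms in severe hypoxia and for miR-144-3p in moderate hypoxia. This is from a limma F-test of oxygen level by hour, added after the values were seen. For severe hypoxia the difference ranged over 5.22 log2 between hours for miR-144-3p (adjusted p = 1.72e-05) and over 4.05 log2 for miR-144-5p (adjusted p = 0.000447), with 57.2% of miRNAs called. For moderate hypoxia the ranges were 3.37 log2 (adjusted p = 0.000789) and 1.81 log2 (adjusted p = 0.0769), with 68.0% of miRNAs called.

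Severe and moderate hypoxia were set against each other to find differences between depths of hypoxia. At 0 h miR-144-5p was 3.08-fold higher in severe hypoxia, at 1940 ± 228 against 638 ± 168 rpm (log2 1.62, SE 0.44, adjusted p = 0.0106), and miR-144-3p stood at 3543 ± 295 against 1627 ± 87 rpm (log2 1.12, SE 0.42, adjusted p = 0.0564), where 23.6% of miRNAs were called. The call ended without moderate library 1 or severe library 1 (adjusted p = 0.102 and 0.0620). At 8 h the arms were at -0.73 and -0.66 log2 (adjusted p = 0.260 and 0.362; 11.2% of miRNAs called), with 95% intervals from -1.60 to 0.14 and from -1.58 to 0.26.

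No other hour gave a called difference between the 2 hypoxia levels. At 4 h the arms stood at -0.64 and 0.48 log2 (adjusted p = 0.275 and 0.441; 31.1% of miRNAs called). At 12 h they stood at 0.00 and -0.75 (adjusted p = 1.0 and 0.200; 37.3%), and at 24 h at 0.77 and 0.18 (adjusted p = 0.175 and 0.758; 32.2%). After scaling to the listed total miR-144-3p was called at 0 h (log2 1.28, adjusted p = 0.0346) and at 4 h (-1.28, adjusted p = 0.0318), and the sign of miR-144-5p at 4 and 24 h turned (-0.27 and -0.36). With this scaling 56 of 216 miRNAs were called at 0 h and 62 of 219 at 4 h. The mean over hours was 0.10 log2 for miR-144-3p (95% interval -0.29 to 0.50, adjusted p = 0.705) and 0.18 for miR-144-5p (-0.24 to 0.59, adjusted p = 0.545), with 28.4% of miRNAs called, and both signs turned after scaling (-0.10 and -0.04). The difference between hours was called for both arms (ranges 1.85 and 2.37 log2, adjusted p = 0.0237 and 0.0114; 76.8% of miRNAs), with the calls ended by leaving out moderate library 2 at 0 h, severe library 2 at 0 h or severe library 2 at 8 h for miR-144-3p (adjusted p = 0.0555, 0.0544 and 0.0540) and moderate library 1 at 0 h for miR-144-5p (adjusted p = 0.0530).

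The arms were not in a fixed ratio. When a Dicer product is loaded into Argonaute, usually 1 strand is kept and the other is lost, so the ratio of the arms describes the ratio in which the strands were recovered as reads. The 5p arm was below the 3p arm in most libraries. The ratio of miR-144-5p to miR-144-3p had a median of 0.731 over the 45 libraries and ran from 0.309 to 1.73, with the 5p arm above the 3p arm in 6 libraries. These figures include averaged values. Both arms were measured in 3 of the 6, and the lowest ratio with both arms measured was 0.434. Both arms were measured in 25 libraries, since in 10 groups the same library holds the averaged value of both arms and in the others a different one.

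In control liver the ratio was between 0.540 and 0.967 in every library with both arms measured. At 0 h it was 0.612 and 0.776, at 8 h 0.768 and 0.713, at 12 h 0.902 and 0.967, and at 24 h 0.774 and 0.743. The 2 control libraries at 4 h were the farthest apart, at 0.883 and 0.540. The ratio did not pass the test for a change over time in control (range 0.44 log2, adjusted p = 0.673), where 50.8% of precursors with both arms tested did.

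At 8 h the 5p arm was above the 3p arm in 3 of the 4 hypoxia libraries with both arms measured. In severe hypoxia the ratio was 1.06 in library 1 and 1.63 in library 2, and in moderate hypoxia 0.906 in library 2 and 1.73 in library 3, against at most 0.768 in control. The difference in ratio from control was not called in either level (log2 0.83 and 0.76, SE 0.31 for both, adjusted p = 0.129 and 0.226), where 4.55% and 2.99% of precursors were called. Without moderate library 2 the moderate difference was 1.22 log2 (adjusted p = 0.0406).

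By contrast the ratio was low in severe hypoxia at 12 h. There it was 0.439 in the only library with both arms measured (library 2), against 0.902 and 0.967 in control (log2 -1.09, SE 0.39, adjusted p = 0.0396), beside 37.5% of precursors called. The severe group is thus a single library, and the test assumes that it varies like the other groups. The call ended without control library 1, 2 or 3, with differences of -1.09, -1.14 and -1.04 log2. Control library 1 holds an averaged arm and adds no ratio of miR-144. Leaving it out moved only the variance moderation and the adjustment, which are shared with other precursors. In moderate hypoxia the ratio was also low at 0 h and 4 h, at 0.483 and 0.434 in 1 library each.

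Over time the ratio passed the test in both hypoxia levels, but the lowest hour of each rests on a single library with both arms measured, at 12 h of severe (0.439) and 4 h of moderate hypoxia (0.434). These libraries could not be left out, and the tests assume that they vary like the others. The range of group means was 1.58 log2 in severe hypoxia (adjusted p = 0.0130, with 55.2% of precursors called) and 1.53 log2 in moderate hypoxia (adjusted p = 0.0166, with 39.3%). Without severe library 2 at 8 h the first was 1.27 log2 (adjusted p = 0.0667), and without moderate library 3 at 8 h the second was 1.06 log2 (adjusted p = 0.0702). The difference in ratio between severe hypoxia and control ranged over 1.92 log2 between hours (adjusted p = 0.0488, with 35.8% of precursors called). Its lower end is the single severe library of 12 h, and severe hypoxia at 4 h and 24 h has 1 such library each. This call ended on leaving out any 1 of 19 of the 27 libraries that could be left out (1.87 log2 without control library 3 at 12 h). Some of these hold an averaged arm and add no ratio of miR-144, such as control library 1 at 0 h. Without it the value stayed at 1.92 log2, and only the variance moderation and the adjustment moved. The call is thus close to the threshold in any fit.

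Averaged over hours the ratio did not differ from control or between hypoxia levels past the test. It stood at -0.04 log2 for severe against control (95% interval -0.39 to 0.30, adjusted p = 0.864), -0.18 for moderate against control (-0.51 to 0.15, adjusted p = 0.50) and 0.14 for severe against moderate (-0.23 to 0.50, adjusted p = 0.598). Of the precursors 28.3%, 15.4% and 25.5% were called in these comparisons. Among 39 precursors with both arms of at least 10 rpm and measured in all groups, miR-144 ranked 28th by the span of its log2 ratio over the 15 groups (1.83 against a median of 2.17), so a shifting ratio was common in these libraries.

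**Figure D3:**
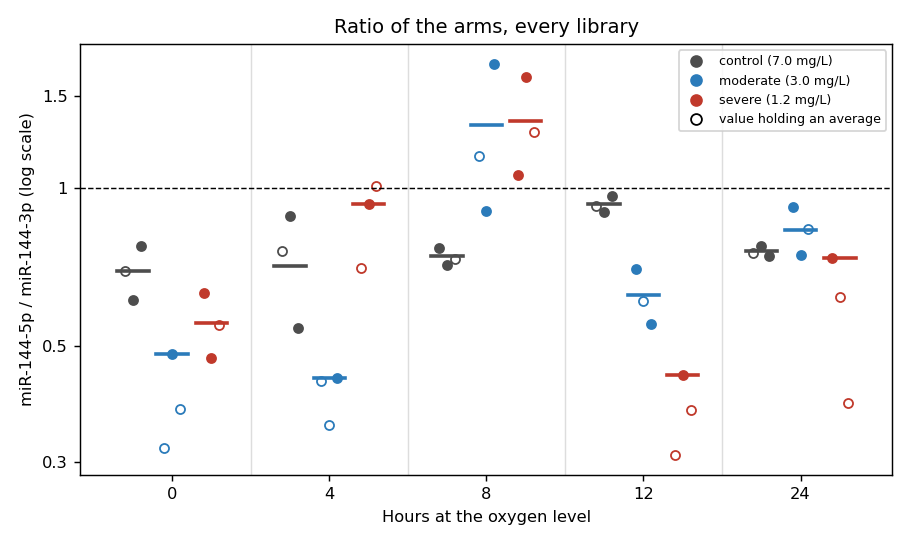
Ratio of miR-144-5p to miR-144-3p on a log axis in each library, by hour and oxygen level, with filled points where both arms were measured, open points where an arm holds an average, bars at the mean of the filled points and a dashed line at 1. The 8 h hypoxia libraries reach 1.63 and 1.73, and the moderate libraries at 0 and 4 h and the severe ones at 12 h lie at 0.483 or below.

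Over the 15 groups the arms followed each other, with Pearson's r = 0.88 and Spearman's rho = 0.81 between their group means on the log2 scale (r = 0.84 after scaling to the listed total). These and the following correlations are descriptions over 15 groups that share the scaling of their libraries. The listed total itself had r = 0.55 with miR-144-3p and 0.62 with miR-144-5p, and the median eligible miRNA had r = 0.38 and 0.45, over 150 miRNAs.

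The miRNAs whose group means were most like miR-144-3p were miR-142a-3p and miR-142b-3p (r = 0.89 for both), miR-2188-3p (0.82), miR-2188-5p (0.79) and miR-190a-5p (0.77). After scaling to the listed total these were 0.67, 0.67, 0.75, 0.70 and 0.32. miR-142 is a miRNA of blood cells in general, expressed through the white cell lineages. Its 3p arms from copies a and b have the same mean level (133 rpm) and range, so they count as 1 measurement. The 5p arms of miR-142 did not share this likeness. The more abundant miR-142a-5p (mean 2720 rpm) had r = 0.41 with miR-144-3p and 0.43 with miR-144-5p. For miR-142b-5p (mean 2.79 rpm) these were -0.07 and -0.00. For miR-144-5p the most alike were miR-2188-3p (r = 0.92), miR-2188-5p (0.89), miR-204-5p (0.80) and the same miR-142 3p arms (0.80), with 0.91, 0.84, 0.70 and 0.56 after scaling. Both arms of miR-2188 were thus among the most alike for either arm of miR-144.

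Group means show what this likeness consists of. miR-2188-5p stood at 2141 rpm in control at 8 h, against 460 rpm in severe and 531 rpm in moderate hypoxia at that hour. At 0 h it averaged 1110 rpm in severe hypoxia against 728 rpm in control. The log2 means of these 0 h groups were closer, at 9.75 and 9.49, since the severe libraries were far apart. miR-142a-3p stood at 69.9 rpm in severe and 109 rpm in moderate hypoxia at 8 h. Its 0 h means were 180 rpm in severe hypoxia and 110 rpm in control. miR-142a-3p rose at 0 h of severe hypoxia (log2 0.71, SE 0.22, adjusted p = 0.0460) and fell at 8 h (log2 -1.08, SE 0.22, adjusted p = 0.000848), a smaller span than that of miR-144-3p. It also rose at 0 h of moderate hypoxia (log2 0.84, adjusted p = 0.0114, limma), where neither arm of miR-144 was called. Its 8 h difference in moderate hypoxia was not called (log2 -0.44, adjusted p = 0.115, limma), whereas both arms of miR-144 were as deposited. In severe hypoxia the 5p arms of miR-142 were called at neither 0 h nor 8 h. miR-142a-5p differed from control by 0.27 and -0.14 log2 at these hours, and miR-142b-5p by 0.50 and 0.62.

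Few other miRNAs of the red cell list passed the test at the hours where miR-144 did. The list holds miRNAs named as abundant in red cells of mammals, and miR-16, miR-25, miR-92a and miR-93 are expressed widely in other cells too. miR-451 and miR-486 are on the list by name, but neither was found among the miRNAs of these libraries, so they could not be analysed. Of the other 9 listed miRNAs, 8 were tested in severe hypoxia at 0 h and again at 8 h. At 0 h, 1 rose (miR-363-3p, a rare miRNA with a mean of 1.68 rpm, log2 1.72, SE 0.45, adjusted p = 0.0211) and 0 fell, with a median of -0.45 log2 beside 0.02 and 7.80% called over all 218 miRNAs. At 8 h, 0 rose and 0 fell by limma, with a median of -0.05 beside -0.28 and 23.6% called over all 216.

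In moderate hypoxia at 8 h, 1 of the 8 tested fell, miR-16b-5p (log2 -0.74, SE 0.23, adjusted p = 0.0204), and the median was -0.54 beside -0.56 and 34.4% called over all miRNAs. At 24 h of moderate hypoxia 4 of 8 fell and 1 rose, where 20.2% of all miRNAs were called. The fallen ones were the miR-16 family, miR-16a-5p, miR-16b-5p, miR-16c-3p and miR-16c-5p (log2 -0.96, -0.96, -1.46 and -1.40), and the risen one miR-92a-3p (0.98), with a median of -0.71 beside -0.04. Correlations of the 9 with miR-144-3p over the groups in which they were measured ran from -0.04 (miR-363-3p) to 0.58 (miR-16a-5p).

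The summed level of these 9 miRNAs, most of it miR-92a-3p, was 24961 to 30830 rpm in control and 25136 to 29457 rpm in severe hypoxia at 8 h, the hour at which miR-144-3p differed 11.6-fold. In moderate hypoxia at 8 h it was 15704 to 24602 rpm. At 0 h it was 26681 to 29197 rpm in control and 23715 to 31462 rpm in severe hypoxia. This sum and those of the other lists below are as deposited and were not scaled. The listed total at 8 h averaged 795919 rpm in control, 572335 rpm in severe and 441080 rpm in moderate hypoxia. A lower sum at 8 h need not be a lower share of the listed miRNAs.

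**Figure D4:**
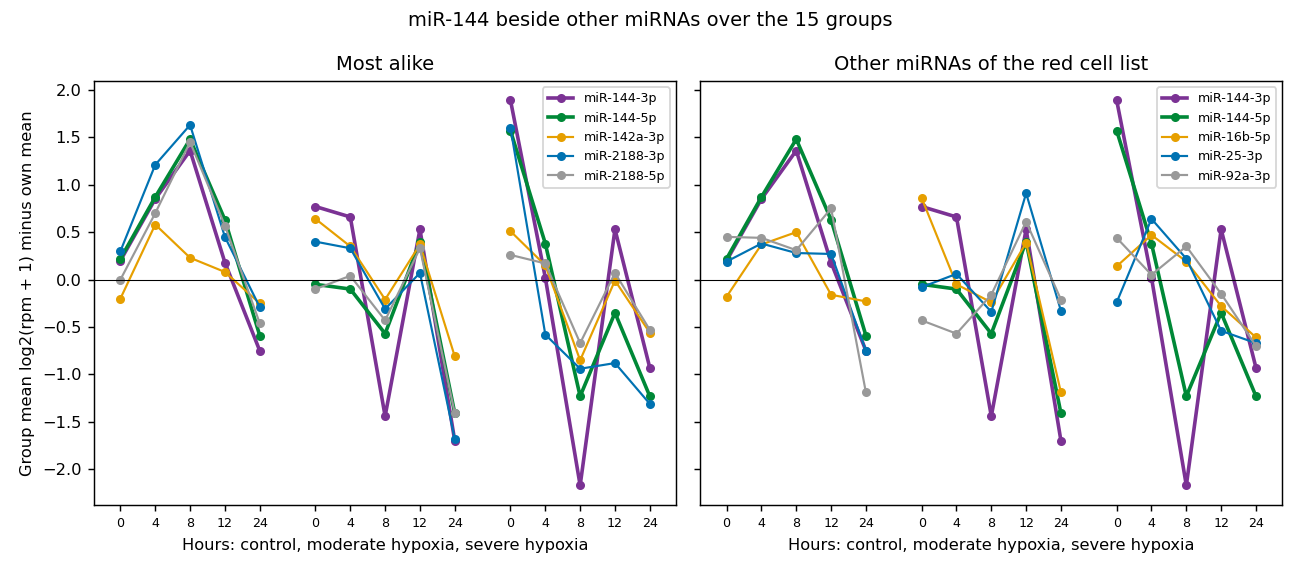
Group means of log2(rpm + 1), each minus the miRNA's own mean over the 15 groups, by hour within control, moderate and severe hypoxia, for both miR-144 arms beside the miRNAs most like them (left) and beside the 3 most abundant other miRNAs of the red cell list (right). miR-2188 and, over a smaller span, miR-142a-3p are low at 8 h of severe hypoxia with miR-144, whereas miR-16b-5p, miR-25-3p and miR-92a-3p stand 0.19, 0.22 and 0.35 log2 above their own means there.

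Markers of other cells were set beside miR-144 at the hours where it differed. On the leukocyte list miR-223 is given by name but was not found among the miRNAs of these libraries. Of the 9 leukocyte miRNAs found, all tested, 3 rose and 0 fell in severe hypoxia at 0 h (miR-155-5p with log2 1.49, and both miR-142 3p arms, which are 1 measurement listed under 2 names), with a median of 0.32 log2 beside 0.02 and 7.80% called over all miRNAs. At 8 h the miR-142 3p measurement fell and miR-155-5p rose (log2 1.34, adjusted p = 0.0316, limma), with a median of -0.14 beside -0.28 and 23.6% called. In moderate hypoxia at 8 h, 0 of 9 were called by limma, with a median of -0.44 beside -0.56 and 34.4% called over all miRNAs. Their summed level at 8 h was 9466 to 10081 rpm in control, 5762 to 6386 rpm in severe and 6572 to 6716 rpm in moderate hypoxia, and at 0 h 4876 to 6033 rpm in control and 6261 to 7352 rpm in severe hypoxia. These sums are as deposited, and the listed total at 8 h was also lower in hypoxia. The lower 8 h sums are not read as a lower share. The part of the leukocyte miRNAs in the miR-144 differences was not tested.

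Of 7 hepatocyte miRNAs, 2 fell and 0 rose at 8 h in severe hypoxia (median -0.33 log2) and 2 fell and 0 rose in moderate hypoxia (median -0.48). These are near the background at that hour, with 23.6% and 34.4% of all miRNAs called and medians of -0.28 and -0.56. The fallen ones were miR-122-5p (log2 -0.85 and -1.08, adjusted p = 0.0454 and 0.0110, limma) and miR-148-5p (log2 -0.96 and -1.27, adjusted p = 0.000848 and 0.000114). miR-122-5p is known as the dominant miRNA of vertebrate liver, but here it averaged 8794 rpm, against 65142 rpm for miR-192-5p. At 0 h in severe hypoxia 0 of the 7 were called by limma (median -0.23), beside 7.80% called and a median of 0.02 over all miRNAs. None of the 7 was at 0 in any library. Their summed level at 8 h was 85041 to 107758 rpm in control, 77426 to 89057 rpm in severe and 49609 to 57812 rpm in moderate hypoxia. At 0 h it was 89326 to 97599 rpm in control and 61103 to 73986 rpm in severe hypoxia, without overlap. Of single miRNAs 54.1% did not overlap at that hour. These sums are as deposited. The listed total at 8 h was also lower in hypoxia (mean 795919 rpm in control, 572335 rpm in severe and 441080 rpm in moderate hypoxia). The lower 8 h sums are therefore not read as a lower share. Their part in the miR-144 differences was not tested.

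Endothelial miR-126, summed over its 4 arms, was 35666 to 49304 rpm in control at 8 h, 17872 to 20383 rpm in severe and 14577 to 15667 rpm in moderate hypoxia. At 0 h it was 32807 to 39834 rpm in control and 33774 to 36046 rpm in severe hypoxia. At 8 h 1 of the 4 arms was called in each hypoxia level, with medians of -0.58 log2 in severe and -0.72 in moderate hypoxia, beside -0.28 and -0.56 and 23.6% and 34.4% called over all miRNAs. These were miR-126a-3p in severe (log2 -9.41, adjusted p = 3.14e-11, limma) and miR-126b-3p in moderate hypoxia (log2 -11.17, adjusted p = 6.21e-09). Differences of similar size the other way were found for miR-126b-3p, which differed from control by 9.66 log2 at 4 h and 10.07 at 24 h of severe hypoxia, and by 10.17 at 4 h and 9.22 at 24 h of moderate hypoxia, so these single arms are not read as a level of endothelium. The sum holds these 3p arms, which ran from 11.9 to 17170 rpm (miR-126a-3p) and from 0 to 22673 rpm (miR-126b-3p), and is not read so either. At 8 h miR-126a-5p and miR-126b-5p were not called, with log2 -0.23 and -0.39 in severe and -0.62 and -0.74 in moderate hypoxia. The part of miR-126 in the miR-144 differences was not tested.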

How the data were processed

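The 45 small RNA libraries of liver were deposited as 1 table of 266 miRNAs each. The values behave as RPM (reads scaled to a common library size) made by the authors before deposit, which is inferred from the deposited values; the labels do not state the unit, and the aligner, miRNA reference and genome build were not given to this work. Low values (up to 12 rpm) were whole multiples of 1 read's worth within 0.006 rpm for a median of 97.9% per library (lowest 83.6%). The worth of 1 read was itself chosen to make as many measured values whole as possible. In 86.2% of sets of 3 above 0, 1 deposited value was the average of the remaining 2 (tolerance 0.0101 rpm or 0.1%), and such values were treated as missing. No count test was run, since the averaged values are not whole reads.

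Differences were fitted on log2(rpm + 1) with limma 3.58.1 (R 4.3.3; trended variance, 1 fit over all 15 groups) over the 228 miRNAs averaging 1 rpm or more, and for the arm ratio over 72 precursors, with Benjamini-Hochberg adjustment over all tested at 0.05. The F-test of oxygen level by hour was added after the values were seen. The script was tested on simulated data. Alternatives were another scaling, pseudocount, filter, block, variance model or set of samples, and leaving out each library or hour. Tables were handled with Python 3.11.15, numpy 2.4.6 and pandas 2.3.3. The members and the marker lists were chosen with earlier results of these data known. The miRNAs named are both arms, the 5 whose group means correlate best with each arm, and list members by counts and where they pass the test. Unused columns of sample values numbered 0.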

Additional observations from a re-analysis of the deposited data

Results flagged for a closer look

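For 6 results the difference between oxygen levels itself differed between hours in the limma F-test, which was added after the values were seen. Between severe hypoxia and control this held for miR-144-3p (adjusted p = 1.72e-05) and miR-144-5p (adjusted p = 0.000447), where 57.2% of all miRNAs were called. In the same comparison it held for the ratio of the arms (adjusted p = 0.0488), where 35.8% of precursors were called. The call of the ratio ended in 19 of the 27 fits that left out a library. It also ended in some of the alternative fits listed below. Between moderate hypoxia and control the difference between hours held for miR-144-3p (adjusted p = 0.000789), where 68.0% of all miRNAs were called. Between severe and moderate hypoxia it held for miR-144-3p (adjusted p = 0.0237) and miR-144-5p (adjusted p = 0.0114), where 76.8% of all miRNAs were called.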

How the results depend on the processing

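Of 72 results, 24 were called. Names below give the arm, the comparison and the hour, with the value in log2. The 8 h calls of both arms in severe hypoxia held in every alternative run. A pseudocount or filter of 10 rpm changed none of the 72 calls. The cause of the changes was not tested, except that keeping all 3 values counts averages as extra measurements. With all 3 deposited values kept, 5p severe-control 0 h (1.35), 3p severe-control 4 h (-0.83), the ratio severe-control 8 h (0.82), 5p severe-control 12 h (-0.99), 5p severe-control 24 h (-0.65), 3p severe-control mean (-0.52), the ratio moderate-control 0 h (-0.83), 5p moderate-control 4 h (-1.03), the ratio moderate-control 4 h (-0.82), the ratio moderate-control 8 h (0.72), the ratio moderate-control 12 h (-0.59), 3p moderate-control 24 h (-0.98), 5p moderate-control 24 h (-0.85), the ratio moderate-control mean (-0.28), 3p severe-moderate 0 h (1.12), 3p severe-moderate 4 h (-0.62), the ratio severe-moderate 4 h (1.11), 3p severe-moderate 8 h (-0.76), 5p severe-moderate 8 h (-0.66), 5p severe-moderate 12 h (-0.74), the ratio severe-moderate 12 h (-0.73), 3p severe-moderate 24 h (0.77), the ratio severe-moderate 24 h (-0.56), 5p moderate-control between hours (1.82), the ratio moderate-control between hours (1.56) and the ratio severe-moderate between hours (1.84) gained a call. With all 3 deposited values kept, 3p severe-moderate 12 h (-0.01) changed sign. Scaled to the listed total, 5p severe-control 0 h (1.44), 5p severe-control 24 h (-1.34), 3p severe-control mean (-0.51), 3p severe-moderate 0 h (1.28) and 3p severe-moderate 4 h (-1.28) gained a call. Scaled to the listed total, 3p moderate-control 4 h (0.43), 5p severe-moderate 4 h (-0.27), 5p severe-moderate 24 h (-0.36), 3p severe-moderate mean (-0.10) and 5p severe-moderate mean (-0.04) changed sign. Scaled to the listed total, 5p moderate-control 8 h (-1.19), 3p moderate-control mean (-0.40), 3p time control (1.21), 5p time control (0.95) and 5p time moderate (0.94) lost the call. Scaled by the median of ratios, 3p moderate-control 4 h (0.39), 5p severe-moderate 4 h (-0.08), 5p severe-moderate 24 h (-0.27) and 3p severe-moderate mean (-0.01) changed sign. Scaled by the median of ratios, 5p moderate-control 8 h (-1.45), 3p moderate-control mean (-0.48), 3p time control (1.15), 5p time control (1.0), 5p time moderate (0.79) and the ratio severe-control between hours (1.92) lost the call. Scaled by the median of ratios, 3p severe-moderate 0 h (1.46) and 3p severe-moderate 4 h (-1.19) gained a call. With a pseudocount of 0.1 rpm, the ratio severe-control between hours (1.92) lost the call. With no filter, the ratio severe-control between hours (1.92) lost the call. Without the variance trend, the ratio severe-control between hours (1.92) lost the call. With only the groups compared in the fit, the ratio severe-control 8 h (0.83), 5p severe-control 12 h (-0.99), 3p severe-control mean (-0.50), 3p severe-moderate 0 h (1.12) and 3p severe-moderate 24 h (0.77) gained a call. With only the groups compared in the fit, the ratio severe-control 12 h (-1.09), the ratio time severe (1.58) and the ratio severe-control between hours (1.92) lost the call. Without 0 h, 3p severe-control mean (-1.05) gained a call. Without 0 h, the ratio severe-control mean (0.03), 3p severe-moderate mean (-0.15) and 5p severe-moderate mean (-0.19) changed sign. Without 4 h, the ratio severe-moderate mean (-0.11) changed sign. Without 8 h, 3p severe-control mean (0.26) changed sign. Without 8 h, 5p severe-control mean (-0.19), 3p moderate-control mean (-0.06) and 5p moderate-control mean (-0.58) lost the call. Without 12 h, 3p severe-control mean (-0.71) gained a call. Without 12 h, 5p severe-control mean (-0.62) lost the call. Without 12 h, the ratio severe-control mean (0.22) changed sign. Without 24 h, 3p severe-control mean (-0.58) gained a call. Without 24 h, 3p moderate-control mean (-0.52) lost the call. Without 24 h, 3p severe-moderate mean (-0.06) changed sign. With the spread between hours as the error, 5p severe-control mean (-0.69), 3p moderate-control mean (-0.61) and 5p moderate-control mean (-0.87) lost the call. In that fit 0 of 224 miRNAs were called for severe-control and 1 of 224 for moderate-control.

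Same-numbered libraries correlated from -0.22 to 0.37 (median 0.02), so pairing by number was not seen. Averaged values were kept here, and these lie near the mean of their group, so the correlations cannot settle whether the numbers pair libraries. With the replicate number as a block, the ratio severe-control 8 h was 0.83 and gained a call, 3p severe-moderate 12 h was -0.04 and changed sign and the ratio moderate-control between hours was 1.49 and gained a call. The edgeR alternative was not run, and with only the groups compared 1 result had no value.

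On leaving out each library in turn the 72 values ranged as follows, and 28 results changed call or sign in at least 1 case. For miR-144-3p they were severe-control 0 h 1.60 to 1.77, severe-control mean -0.61 to -0.39, moderate-control 0 h 0.51 to 0.62 and moderate-control mean -0.73 to -0.48. Also for miR-144-3p they were time control 1.55 to 2.65, severe-control between hours 4.75 to 5.69, moderate-control between hours 2.74 to 3.99 and severe-control 4 h -1.24 to -0.41. Also for miR-144-3p they were moderate-control 4 h -0.60 to 0.23, severe-control 8 h -4.00 to -3.06, moderate-control 8 h -3.42 to -2.18 and severe-control 12 h -0.02 to 0.72. Also for miR-144-3p they were moderate-control 12 h -0.02 to 0.71, severe-control 24 h -0.73 to 0.37, moderate-control 24 h -1.50 to -0.40 and severe-moderate 0 h 1.04 to 1.21. Also for miR-144-3p they were severe-moderate mean -0.02 to 0.23, time moderate 2.41 to 2.83, severe-moderate between hours 1.76 to 2.47 and severe-moderate 4 h -0.97 to -0.30. Also for miR-144-3p they were severe-moderate 8 h -1.35 to -0.11, severe-moderate 12 h -0.34 to 0.35, severe-moderate 24 h 0.68 to 0.85 and time severe 3.74 to 4.38. For miR-144-5p they were severe-control 0 h 1.14 to 1.55, severe-control mean -0.85 to -0.54, moderate-control 0 h -0.55 to -0.00 and moderate-control mean -1.02 to -0.72. Also for miR-144-5p they were time control 1.55 to 2.59, severe-control between hours 3.64 to 4.47, moderate-control between hours 1.39 to 2.22 and severe-control 4 h -1.26 to 0.29. Also for miR-144-5p they were moderate-control 4 h -1.74 to -0.19, severe-control 8 h -3.12 to -2.29, moderate-control 8 h -2.46 to -1.63 and severe-control 12 h -1.30 to -0.67. Also for miR-144-5p they were moderate-control 12 h -0.56 to 0.08, severe-control 24 h -1.16 to -0.12, moderate-control 24 h -1.34 to -0.30 and severe-moderate 0 h 1.35 to 1.90. Also for miR-144-5p they were severe-moderate mean 0.08 to 0.28, time moderate 1.62 to 1.99, severe-moderate between hours 2.10 to 2.64 and severe-moderate 4 h 0.24 to 0.72. Also for miR-144-5p they were severe-moderate 8 h -0.81 to -0.50, severe-moderate 12 h -1.0 to -0.49, severe-moderate 24 h -0.32 to 0.68 and time severe 2.68 to 3.30. For the ratio they were severe-control 0 h -0.54 to -0.13, severe-control mean -0.11 to 0.03, moderate-control 0 h -0.68 to -0.34 and moderate-control mean -0.27 to -0.08. Also for the ratio they were time control 0.39 to 0.79, severe-control between hours 1.61 to 2.22, moderate-control between hours 0.96 to 1.89 and severe-control 4 h 0.08 to 0.78. Also for the ratio they were moderate-control 4 h -1.03 to -0.32, severe-control 8 h 0.52 to 1.14, moderate-control 8 h 0.29 to 1.22 and severe-control 12 h -1.14 to -1.04. Also for the ratio they were moderate-control 12 h -0.76 to -0.41, severe-control 24 h -0.07 to -0.02, moderate-control 24 h -0.02 to 0.28 and severe-moderate 0 h -0.03 to 0.38. Also for the ratio they were severe-moderate mean 0.04 to 0.23, time moderate 1.06 to 1.99, severe-moderate between hours 1.43 to 1.78 and severe-moderate 4 h 1.10 to 1.10. Also for the ratio they were severe-moderate 8 h -0.39 to 0.54, severe-moderate 12 h -0.67 to -0.33, severe-moderate 24 h -0.32 to -0.02 and time severe 1.27 to 1.89.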
